A study of Drosophila melanogaster with 4 samples.

Results

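ORC2-bound regions of the small chromosome 4, of 5 scaffolds of heterochromatin placed beside a chromosome arm (2LHet, 2RHet, 3LHet, 3RHet and XHet, called the placed scaffolds here) and of U were examined. They were chosen by the sequence named in the first column of the peak lists. They numbered 294 of 8247 peaks in replicate 1, 488 of 10621 peaks in replicate 2 and 133 of 6587 regions in the authors' combined list. Of the 782 replicate peaks, 64 and 90 (replicates 1 and 2) lay on chromosome 4, 139 and 245 on the placed scaffolds and 91 and 153 on U. Both libraries were made by chromatin immunoprecipitation of ORC2 with an unpurified rabbit serum from dissected salivary glands of wandering larvae of Drosophila melanogaster. They came from a first and a second chromatin extraction of the strain SuUR - Orr-Weaver, labelled SuUR mutant, for which the label gives an outcross entry of 3 and a transposon tag, GFP. Both libraries share this genotype and stage (the third larval instar) and no treatment is labelled, so no comparison of genotypes was made. The entries labelled Oregon-R (wild type, ORC2 ChIP DNA and input DNA) were not analysed here. They carry the names of the same extractions, and the control used for peak calling is unstated in the sources used here, so genotype is stated as labelled. Nothing in the labels says whether the extractions came from separate animals, and with no read counts in the lists the depth is unknown.

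ORC2 is a subunit of the origin recognition complex, which binds DNA and loads the replicative helicase at sites where replication can begin. Salivary gland cells copy their DNA many times without dividing, and their pericentromeric heterochromatin, which is rich in repeats, gathers in the chromocenter and is copied less than the rest. The protein encoded by SuUR is known to restrain replication there, and mutants copy part of this DNA more fully. Chromosome 4 carries genes embedded in chromatin with heterochromatic features. U is an artificial sequence made by joining unplaced scaffolds, so a distance on U is not always a distance along a chromosome. The lists hold no chromatin mark, and the heterochromatic character of the scaffolds was taken from their names.

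ORC2 peaks were most frequent on chromosome 4, fewer on the placed scaffolds and fewest on U, in both libraries and in the combined list. Chromosome 4 held 49.2 peaks per Mb in replicate 1 (95% exact Poisson interval 37.9 to 62.8) and 69.2 in replicate 2 (55.6 to 85.1). The placed scaffolds held 16.2 (13.6 to 19.2) and 28.6 (25.1 to 32.4), and U held 9.07 (7.30 to 11.1) and 15.3 (12.9 to 17.9). Chromosome 4 was thus 3.03 times as dense as the placed scaffolds in replicate 1 (exact interval of the ratio 2.22 to 4.10) and 2.42 times in replicate 2 (1.88 to 3.09). U had 0.559 times the density of the placed scaffolds in replicate 1 (0.424 to 0.733) and 0.533 times in replicate 2 (0.433 to 0.655). A difference is stated here where the interval of the ratio excludes 1 in both libraries. The intervals here and throughout cover counting error alone and take each peak as independent of its neighbours.

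The contrast of chromosome 4 with both other classes was larger in the combined list, which holds regions called in both libraries. There chromosome 4 had 37.7 regions per Mb (27.9 to 49.8), the placed scaffolds 5.84 (4.33 to 7.70) and U 3.39 (2.35 to 4.74). Chromosome 4 was 6.45 times as dense as the placed scaffolds (4.26 to 9.76) and 11.1 times as dense as U (7.03 to 17.8). The contrast of U with the placed scaffolds was not larger, with a ratio of 0.580 (0.364 to 0.915). The 3 longer placed scaffolds resembled each other. In replicate 1, 2RHet held 15.1 peaks per Mb, 3LHet 15.3 and 3RHet 15.1, and in replicate 2 they held 28.4, 27.1 and 26.6. XHet, of which the peaks reach only 0.0850 Mb, held 9 peaks in each library, or 106 per Mb (48.4 to 201), and 2LHet held 4 and 8 peaks over 0.176 Mb. Measured from the first to the last peak rather than from position 1, XHet spans 0.0277 Mb, so its density depends on the length taken. Bases beyond the last peak are left out of both lengths, so the densities of XHet and 2LHet can be overstated.

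Chromosome 4 lay below the 5 large arms (2L, 2R, 3L, 3R and X), but by a margin that depended on the peaks used. The ratio of densities was 0.736 in replicate 1 (0.566 to 0.941) and 0.812 in replicate 2 (0.653 to 1.00, an upper limit just under 1). It was 0.694 (0.513 to 0.919) in the combined list, but 1.06 when peaks under the median score of their list were left out. With lists of equal length, or with length measured from the first to the last peak, the interval no longer excluded 1 in both libraries. The placed scaffolds had 0.243 (0.204 to 0.287) and 0.336 (0.295 to 0.381) times the density of the large arms, and U had 0.136 (0.109 to 0.167) and 0.179 (0.152 to 0.210).

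**Figure D1:**
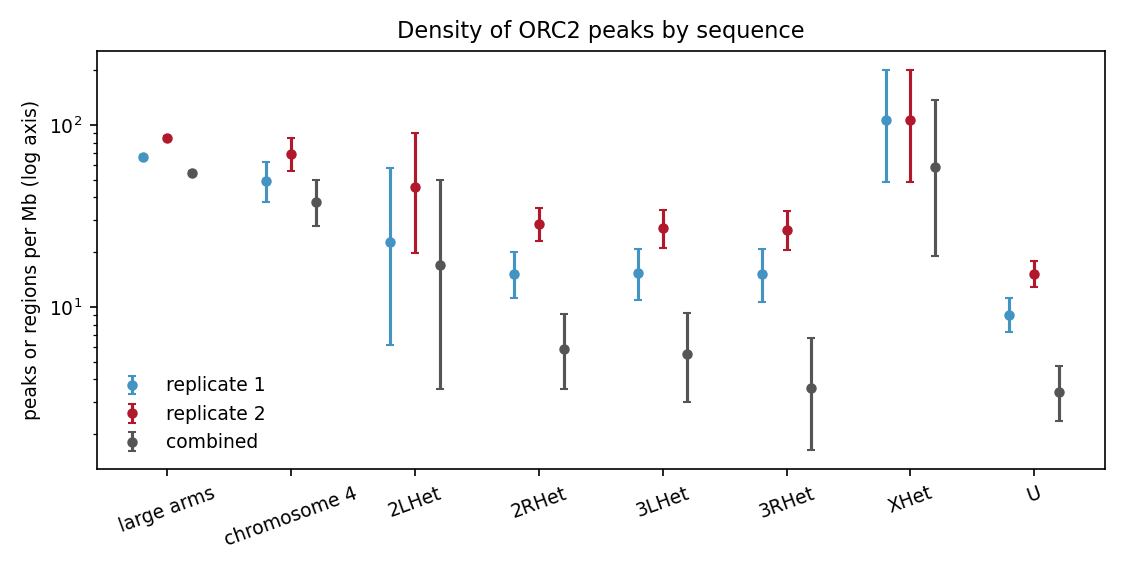
Peaks of replicates 1 and 2 and regions of the combined list per Mb (log axis) for the large arms together, chromosome 4, each placed scaffold and U; bars are 95% exact Poisson intervals. Chromosome 4 lies near the large arms, 2RHet, 3LHet and 3RHet lie together at 15.1 to 15.3 peaks per Mb in replicate 1, and U is lowest in the replicate lists.

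Along chromosome 4 the peaks were spread over its whole length, whereas the scaffolds had long empty stretches. All 13 full windows of 100 kb on chromosome 4 held peaks of both libraries. The last window of each sequence is incomplete, and on chromosome 4 it covers too few bases to be counted. Of 88 windows on the placed scaffolds, 35 held peaks of both libraries, 2 of replicate 1 alone, 17 of replicate 2 alone and 34 (38.6%) of neither. On U, 32 of 101 windows held peaks of both, 3 of replicate 1 alone, 29 of replicate 2 alone and 37 (36.6%) of neither. The lists carry no coverage, so windows without reads and windows without binding cannot be told apart.

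The peaks of the placed scaffolds stood in blocks, described here from the window counts. On 3RHet the first 1.6 Mb was empty in replicate 1 and held 1 replicate 2 peak. The stretch from 1.6 to 2.0 Mb of the same scaffold held 33 of its 38 replicate 1 peaks, 51 of its 67 replicate 2 peaks and 8 of its 9 combined regions. Both libraries thus filled the same 0.4 Mb, although only 8 of those 33 peaks overlapped a replicate 2 peak. On 3LHet, 15 of 39 and 27 of 69 peaks lay between 0.4 and 0.7 Mb, and no peak of either library lay between 1.6 and 2.1 Mb. On 2RHet, the stretch from 0.5 to 1.2 Mb held 0 and 4 peaks. Across windows, the peak counts of the libraries had a Spearman's rho of 0.77 on 2RHet (33 windows), 0.78 on 3LHet (26) and 0.84 on 3RHet (26). It was 0.51 on U (101) and 0.60 on chromosome 4 (14, the incomplete last window included). Windows empty in both libraries entered these values, with 8 on 2RHet, 10 on 3LHet, 16 on 3RHet, 37 on U and 0 on chromosome 4. Their part in rho was not tested. These are descriptions across windows of the same 2 libraries.

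The libraries also filled some stretches differently. The first 0.3 Mb of U held 21 peaks of replicate 2 and none of replicate 1. The end of chromosome 4 held a run of 7 replicate 2 peaks from 1280722 to 1300550, the run with most peaks on this chromosome, and no replicate 1 peak. On U, a run of 10 replicate 1 peaks from 1970229 to 1979064 met 3 replicate 2 peaks, none of which overlapped one of them. Positions are those of FlyBase release 5.1, the build that the file headers name.

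Overlap between the replicates set chromosome 4 apart from both other classes. Over all sequences, 85.1% of replicate 1 peaks and 63.1% of replicate 2 peaks overlapped a peak of the other library by at least 1 bp. On chromosome 4 the shares were 51 of 64 (79.7%, exact binomial interval 67.8 to 88.7) and 50 of 90 (55.6%, 44.7 to 66.0). On the placed scaffolds they were 50 of 139 (36.0%, 28 to 44.5) and 58 of 245 (23.7%, 18.5 to 29.5). On U they were 36 of 91 (39.6%, 29.5 to 50.4) and 35 of 153 (22.9%, 16.5 to 30.4). The odds of overlap on chromosome 4 were 6.91 times those on the placed scaffolds in replicate 1 (exact interval 3.32 to 15.3) and 4.01 times in replicate 2 (2.34 to 6.92). Relative to U they were 5.92 (2.72 to 13.6) and 4.19 (2.31 to 7.68) times as high.

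Between the placed scaffolds and U no difference in overlap was detected. The odds ratio of U to the placed scaffolds was 1.16 in replicate 1 (0.650 to 2.08) and 0.956 in replicate 2 (0.573 to 1.58), so a difference within these limits was not detectable with these numbers of peaks. Chromosome 4 had odds of 0.611 (0.326 to 1.23) and 0.681 (0.439 to 1.06) relative to the large arms, and these intervals include 1. Among single scaffolds the share was lowest on 3RHet, with 9 of 38 (23.7%, 11.4 to 40.2) and 9 of 67 (13.4%, 6.33 to 24.0). It was 19 of 49 and 20 of 92 on 2RHet, 14 of 39 and 21 of 69 on 3LHet, 5 of 9 and 5 of 9 on XHet, and 3 of 4 and 3 of 8 on 2LHet. The intervals of these scaffolds overlap each other.

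Relative to chromosome 4, the lower overlap on the scaffolds was present in both libraries among peaks of middle width, but not at every width. Of peaks over 150 and up to 400 bp wide, all 31 on chromosome 4 overlapped in replicate 1 (lower limit 88.8%), against 15 of 39 on the placed scaffolds (38.5%, 23.4 to 55.4) and 12 of 29 on U (41.4%, 23.5 to 61.1). The large arms had 94.6% (93.7 to 95.3). In replicate 2 the shares at this width were 28 of 34 on chromosome 4 (82.4%, 65.5 to 93.2), 16 of 49 on the placed scaffolds (32.7%, 19.9 to 47.5) and 12 of 39 on U (30.8%, 17 to 47.6), against 76.7% on the large arms. Over 400 bp, all 9 peaks of chromosome 4 overlapped in replicate 1 (lower limit 66.4%) and 21 of 23 in replicate 2 (91.3%, 72.0 to 98.9). At this width 29 of 37 and 32 of 41 peaks of the placed scaffolds overlapped (78.4%, 61.8 to 90.2, and 78.0%, 62.4 to 89.4), and 15 of 19 and 15 of 29 of U (78.9%, 54.4 to 93.9, and 51.7%, 32.5 to 70.6). The intervals of chromosome 4 and the placed scaffolds overlap here, whereas that of U in replicate 2 lies below that of chromosome 4. The large arms had 98.8% (98.3 to 99.2) and 95% (94.1 to 95.7) at this width. These intervals lie above those of the placed scaffolds and of U in both libraries. Of peaks of 36 to 150 bp, 11 of 20 (55.0%, 31.5 to 76.9) overlapped on chromosome 4 in replicate 1, 5 of 34 (14.7%, 4.95 to 31.1) on the placed scaffolds and 8 of 38 (21.1%, 9.55 to 37.3) on U. In replicate 2 chromosome 4 was not higher at this width, with 1 of 18 (5.56%, 0.141 to 27.3) against 6 of 96 (6.25%, 2.33 to 13.1) and 8 of 61 (13.1%, 5.84 to 24.2). Of peaks narrower than the 36 nt read, those that overlapped were 0 of 4 and 0 of 15 on chromosome 4, 1 of 29 and 4 of 59 on the placed scaffolds and 1 of 5 and 0 of 24 on U, against 42.9% and 5.40% on the large arms.

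**Figure D2:**
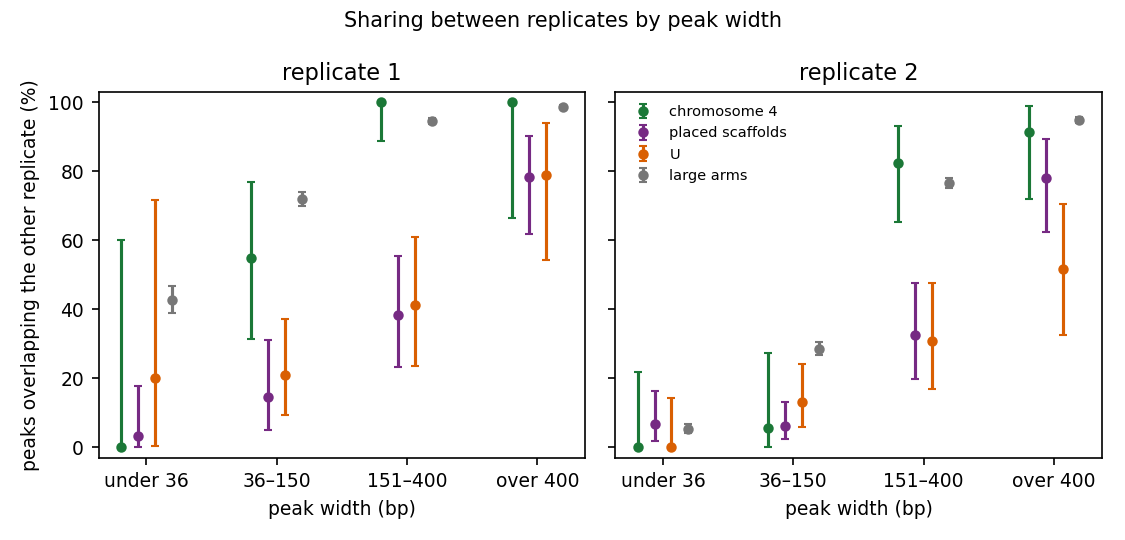
Percentage of peaks that overlap a peak of the other replicate by at least 1 bp, in 4 classes of peak width (bp), for chromosome 4, the placed scaffolds, U and the large arms; bars are 95% exact binomial intervals. At over 150 and up to 400 bp chromosome 4 stands at 100% and 82.4%, and the placed scaffolds at 38.5% and 32.7%.

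Peaks without a partner on the scaffolds were often still near peaks of the other library, except on U in replicate 2. On chromosome 4, 12 of 13 such peaks of replicate 1 and 27 of 40 of replicate 2 had a neighbour in the other library no more than 10 kb away. For the placed scaffolds these numbers were 67 of 89 (75.3%) and 132 of 187 (70.6%), and on 3RHet 29 of 29 and 46 of 58. On U they were 40 of 55 (72.7%) in replicate 1 and 22 of 118 (18.6%) in replicate 2. These U peaks lay a median of 3236 bp from the other library in replicate 1, against 79657 bp in replicate 2. On the large arms 94.9% and 86.9% of the unpaired peaks had one.

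By median, peaks of the placed scaffolds and of U were narrower than those of chromosome 4 in each library. Combined regions of the placed scaffolds were instead wider. For U the combined median was higher over all regions, but not among those of 1 peak from each library (379 against 386 bp). In replicate 1 peaks had a median width of 211 bp on chromosome 4 (quartiles 92 and 287), 166 bp on the placed scaffolds (54.5 and 481) and 162 bp on U (86 and 353). In replicate 2 the medians were 246 bp (quartiles 80 and 405), 98 bp (36 and 259) and 117 bp (81 and 252). Combined regions had a median of 400 bp on chromosome 4 (291 and 514), 805 bp on the placed scaffolds (388 and 1267) and 492 bp on U (227 and 715), against 438 bp on the large arms. Widths of peaks from the same library are not replicates, so the medians are given without a test.

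Narrow peaks were frequent on the placed scaffolds, and so were wide regions in the combined list. Peaks under the read length made up 29 of 139 in replicate 1 (20.9%, 14.4 to 28.6) and 59 of 245 in replicate 2 (24.1%, 18.9 to 29.9), against 7.92% (7.34 to 8.54) and 10.4% (9.83 to 11) on the large arms. On chromosome 4 they made up 6.25% (1.73 to 15.2) and 16.7% (9.64 to 26.0), and on U 5.49% (1.81 to 12.4) and 15.7% (10.3 to 22.4). At the other end, 25 of the 50 combined regions of the placed scaffolds were over 800 bp wide (50%, 35.5 to 64.5), against 5 of 49 on chromosome 4 (10.2%, 3.4 to 22.2), 8 of 34 on U (23.5%, 10.7 to 41.2) and 18.5% (17.5 to 19.4) on the large arms. The interval of the placed scaffolds lies above those of chromosome 4 and of the large arms. Among replicate 1 peaks, 15.8% (10.2 to 23.0) were over 800 bp on the placed scaffolds and 7.87% (7.29 to 8.48) on the large arms. In replicate 2 these shares were 7.76% (4.73 to 11.8) and 9.54% (8.98 to 10.1), so no excess was seen in that library. Broad regions of 1 kb or more numbered 19 of 50 on the placed scaffolds, 8 of 34 on U and 4 of 49 on chromosome 4. On the large arms they numbered 696 of 6454.

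Peaks with a partner were wider than peaks without in every class. A wider peak more easily meets another by at least 1 bp, so the definition of overlap itself favours this direction. Among the placed scaffolds, overlapping peaks had a median width of 666 bp in replicate 1 and 425 bp in replicate 2, and unpaired peaks 90 and 76 bp. On chromosome 4 the medians were 239 and 373 bp for overlapping peaks and 53 and 56 bp for unpaired peaks. On U they were 349 and 252 bp against 99 and 100 bp, and on the large arms 297 and 377 bp against 65 and 84 bp. Joining of several peaks was not frequent in any class. Regions of 1 peak from each library were 46 of 49 on chromosome 4, 45 of 50 on the placed scaffolds and 31 of 34 on U. On the large arms they were 5973 of 6454, and 7.45% held several peaks of a library. Among regions of 1 peak from each library the median width was 386 bp on chromosome 4, 675 bp on the placed scaffolds and 379 bp on U.

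**Figure D3:**
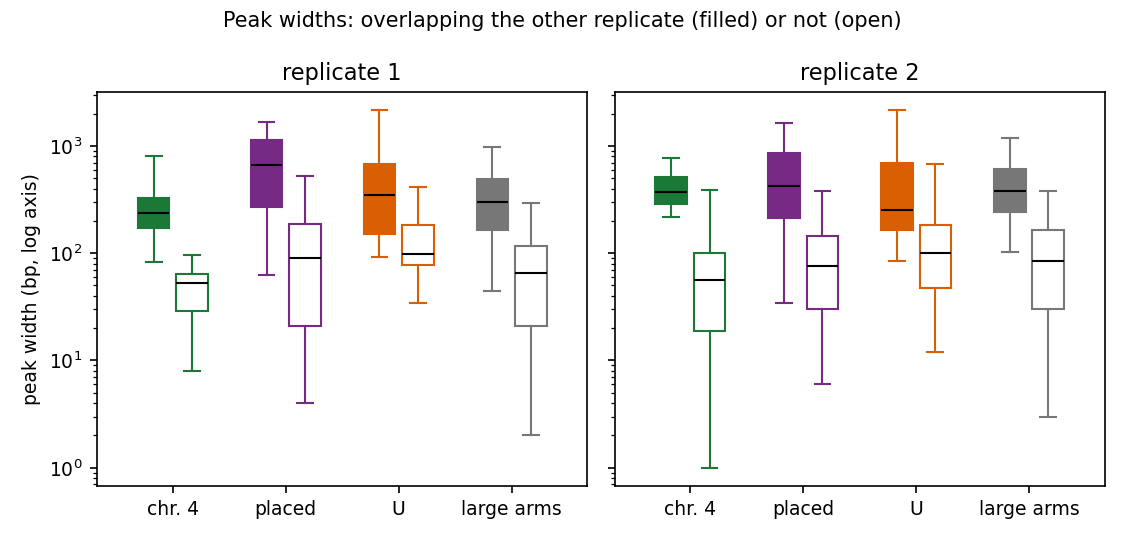
Peak widths (bp, log axis) of chromosome 4, the placed scaffolds, U and the large arms in each replicate, for peaks that overlap the other replicate (filled) and those that do not (open); boxes give quartiles and median, whiskers the 5th and 95th percentiles. On the placed scaffolds the filled boxes have medians of 666 and 425 bp and the open boxes of 90 and 76 bp.

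Within a combined region the libraries shared only part of the bases, to a degree that varied widely within each class. The median share of a region's bases that both libraries covered was 65.8% on chromosome 4 (quartiles 39.9 and 75.7), 54.9% on the placed scaffolds (32.3 and 75.8) and 68.7% on U (31.6 and 88.8), so the spread within a class exceeded the differences between classes. On 3RHet, where few peaks had a partner, the regions that did had a median of 80.5% (68.0 and 90.2, 9 regions). Replicate 2 covered more bases than replicate 1 in 40 of 49 regions of chromosome 4, in 23 of 50 of the placed scaffolds and in 20 of 34 of U. On the large arms it did so in 4583 of 6454 regions.

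By median gap, neighbouring peaks stood closer on the placed scaffolds than on chromosome 4 in the replicate lists, although their density was lower. The upper quartile was longer on the placed scaffolds in both libraries, and in replicate 1 the lower quartile was too. Chromosome 4 had a median gap between neighbours of 10241 bp (quartiles 1270 and 23827) in replicate 1, and of 6820 bp (656 and 19350) in replicate 2. For the placed scaffolds it was 5894 bp (1544 and 26793) and 2762 bp (634 and 21725). On U the libraries differed, with 4741 bp (604 and 93989) in replicate 1 and 20824 bp (2815 and 82079) in replicate 2. In replicate 1, 29 of 90 gaps on U were at most 1 kb (32.2%), and in replicate 2, 20 of 152 were (13.2%). On the large arms the medians were 4280 and 3156 bp.

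In the combined list the order of spacing was that of density. The median gap was 14068 bp on chromosome 4, 27639 bp on the placed scaffolds and 120020 bp on U, against 6029 bp on the large arms. Regions that stood more than 10 kb from any neighbour made up 19 of 49 on chromosome 4 (38.8%), 23 of 50 on the placed scaffolds (46.0%) and 22 of 34 on U (64.7%), against 15.3% on the large arms. Gaps of 100 kb or more numbered 0 of 48 on chromosome 4, 15 of 45 on the placed scaffolds and 18 of 33 on U. On the large arms they numbered 224 of 6449. The longest gap of chromosome 4, 97.4 kb from 231201 to 328597, held 1 unpaired peak of each library. It was followed by 89.6 kb from 718435 to 808020, with 1 of each, and by 87.1 kb from 592730 to 679872, with 1 and 4.

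The longest gaps of the scaffolds were several times as long. On 2RHet a gap of 1007 kb from 1622083 to 2629533 held 3 unpaired peaks of replicate 1 and 16 of replicate 2. On 3LHet, neighbouring gaps of 793 kb from 1397111 to 2190297 and of 786 kb from 607283 to 1393617 held 5 and 7, and 13 and 16. On U a gap of 1648 kb from 1185967 to 2834406 held 19 and 31 unpaired peaks. The next on U, 1485 kb from 4023129 to 5508111, held 1 and 11, and that of 759 kb from 8148526 to 8907467 held 0 and 7. Each of these gaps thus held calls made in a single library, and parts of some, such as 1.6 to 2.1 Mb of 3LHet, held no call of either library.

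**Figure D4:**
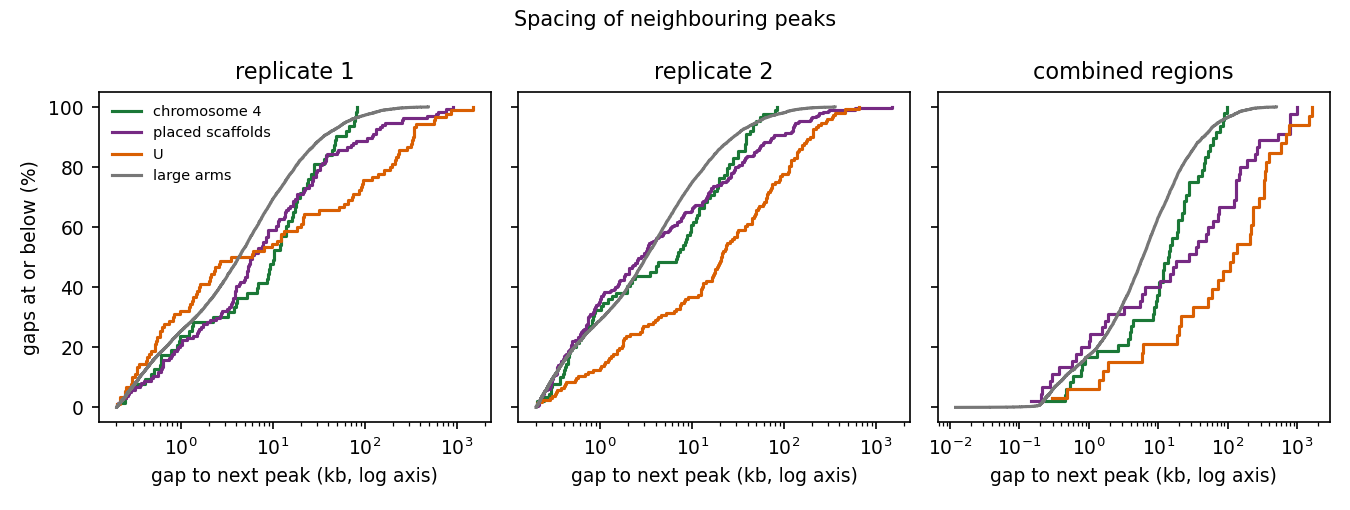
Cumulative percentage of gaps between neighbouring peaks at or below a given length (kb, log axis), for each replicate list and the combined regions. The curve of U is shifted to longer gaps in replicate 2, with a median of 20824 bp against 4741 bp in replicate 1, and in the combined list the median gap is 14068 bp on chromosome 4 and 120020 bp on U.

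Runs of peaks, with gaps of at most 10 kb, marked the densest places. On chromosome 4 the run with most combined regions held 4, from 715680 to 718434. It overlapped a run of 5 replicate 1 peaks from 715924 to 725319 and a run of 5 replicate 2 peaks from 715680 to 725155. On 3LHet, a run from 592210 to 607855 held 17 replicate 2 peaks, and a run of 9 replicate 1 peaks lay from 594238 to 608968. Those runs gave 5 combined regions. On 3RHet a run from 1799848 to 1832100 held 13 replicate 2 peaks, of which 3 overlapped replicate 1. All 9 peaks of each library on XHet formed a single run, from 60625 to 84417 in replicate 1. On U a run of 11 replicate 1 peaks from 1178549 to 1192431 coincided with 7 replicate 2 peaks from 1178601 to 1193085. Another run of 7 replicate 2 peaks on U, from 2065369 to 2090046, met no replicate 1 peak.

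The scores given by the peak caller are on a scale that no source used here explains. Over all peaks, their median was higher on U than in both other classes. In replicate 1 the median score was 1.97 on chromosome 4 (quartiles 1.65 and 2.18), 1.90 on the placed scaffolds (1.65 and 2.40) and 4.38 on U (3.33 and 5.91), against 1.73 on the large arms. In replicate 2 the medians were 2.62 (1.96 and 3.26), 2.34 (1.94 and 3.08) and 3.52 (2.32 and 5.74), against 2.27. Among overlapping peaks alone, U had a median of 3.64 against 2.05 on chromosome 4 in replicate 1. In replicate 2 it was lower on U, with 2.44 against 2.97. Scores above 5 were given to 35 of 91 U peaks in replicate 1 (38.5%, 28.4 to 49.2) and to 49 of 153 in replicate 2 (32%, 24.7 to 40.0). The large arms had 0.402% and 3.09% of such peaks. The lowest score on U in replicate 1 was 2.30, against 1.27 on chromosome 4 and 1.19 on the placed scaffolds. In replicate 2 the lowest scores were close to each other, with 1.33 on U, 1.39 on chromosome 4 and 1.14 on the placed scaffolds.

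At combined regions replicate 2 scored higher on chromosome 4 and on the placed scaffolds, and lower on U. It scored higher at 48 of 49 regions of chromosome 4 (98.0%, 89.1 to 99.9) and at 47 of 50 of the placed scaffolds (94.0%, 83.5 to 98.7), but at 7 of 34 of U (20.6%, 8.70 to 37.9). On the large arms replicate 2 scored higher at 5863 of 6454 regions (90.8%, 90.1 to 91.5), so U alone stood apart from this share. The median ratio of replicate 2 to replicate 1 was 1.38 on chromosome 4 (quartiles 1.2 and 1.62), 1.48 on the placed scaffolds (1.29 and 1.84) and 0.613 on U (0.460 and 0.847). The large arms had 1.31. All 19 regions of 2RHet scored higher in replicate 2, as did 13 of 14 on 3LHet, 8 of 9 on 3RHet, 4 of 5 on XHet and 3 of 3 on 2LHet, so the placed scaffolds followed the arms and U alone did not. For 48, 45 and 33 regions of the 3 classes, the deposited combined score equalled the average of both libraries, with a tolerance of 0.0001. Across regions, scores of the replicates had a Spearman's rho of 0.55 on chromosome 4, 0.43 on the placed scaffolds, 0.29 on U and 0.68 on the large arms, as a description across regions of the same libraries.

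**Figure D5:**
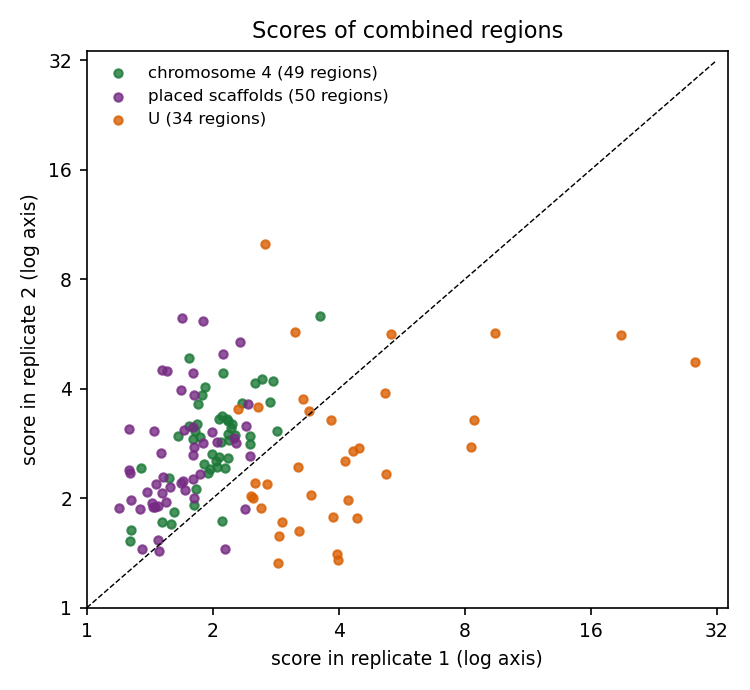
Score in replicate 1 and in replicate 2 (both log axes) of each combined region on chromosome 4, the placed scaffolds and U; the dashed line marks equal scores. Regions of chromosome 4 and of the placed scaffolds lie above the line in 48 of 49 and 47 of 50 cases, and 27 of 34 regions of U do not.

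Unpaired peaks of U in both libraries, and of the placed scaffolds in replicate 1, scored higher than overlapping ones, which was not so on chromosome 4 or the large arms. On U the medians were 4.88 for unpaired and 3.64 for overlapping peaks in replicate 1, and 3.99 and 2.44 in replicate 2. On the placed scaffolds they were 2.1 and 1.69 in replicate 1 and 2.35 and 2.34 in replicate 2. On chromosome 4 the medians were 1.59 for unpaired and 2.05 for overlapping peaks in replicate 1, and 2.18 and 2.97 in replicate 2. At or above the upper quartile of score in a class, 3 of 35 peaks of the placed scaffolds overlapped in replicate 1 and 15 of 62 in replicate 2. At or below the lower quartile 23 of 35 and 15 of 62 did. On U 6 of 24 and 2 of 39 peaks overlapped among the high scores, and 16 of 23 and 16 of 39 among the low ones. On chromosome 4 the high scores overlapped more often, with 15 of 16 and 15 of 23 against 8 of 16 and 8 of 23 of the low ones. The large arms showed the same direction, with 94.0% and 68.5% of the high scores against 77.6% and 53.7% of the low ones. Width moved with these scores. High-scoring peaks had a median width of 87.5 and 45 bp on U and 20 and 51 bp on the placed scaffolds, and low-scoring peaks 410 and 417 bp, and 662 and 202 bp. On chromosome 4 the high-scoring peaks were the wider ones, with 238 and 245 bp against 98 and 102 bp. The part of width in these shares was not tested.

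Region scores on chromosome 4 ran from 1.27 to 3.61 in replicate 1 and from 1.52 to 6.35 in replicate 2, and those on the placed scaffolds from 1.19 to 2.46 and from 1.44 to 6.26. The highest on chromosome 4 was ORC5322 at 445320 to 445565 (246 bp), which scored 3.61 in the first library and 6.35 in the second. It was followed by ORC5347 at 1105357 to 1105601 (2.79 and 4.21), ORC5327 at 507243 to 507535 (2.63 and 4.25) and ORC5342 at 978919 to 979137 (2.53 and 4.15). ORC5351 at 1167085 to 1167331 scored 1.76 and 4.87, the largest ratio between libraries on this chromosome (2.77). All 5 were under 300 bp and scored higher in replicate 2. The widest regions had lower scores, with 2.17 and 2.59 for ORC5332 at 679873 to 681429 (1557 bp), 2.46 and 2.82 for ORC5329 at 577888 to 579415 (1528 bp) and 2.03 and 2.54 for ORC5309 at 89834 to 91118 (1285 bp).

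Among regions of the placed scaffolds the highest scores came from replicate 2. ORC3809 on 3LHet at 594238 to 594490 scored 1.90 and 6.13, and ORC2443 on 2RHet at 1335559 to 1336399 scored 1.69 and 6.26, the largest ratio of this class (3.70). ORC3819 on 3LHet at 2409677 to 2410089 scored 2.32 and 5.37, ORC3816 at 2190298 to 2191191 scored 2.11 and 4.99, and ORC2438 on 2RHet at 442195 to 442341 scored 1.79 and 4.41. In replicate 1 these 5 regions lay within the range of the other regions of the class, whose highest score was 2.46. The widest region of the class, ORC3810 on 3LHet at 594765 to 598801 (4037 bp), was a single peak in replicate 1 with the lowest score there (1.19). In replicate 2 it was broken into 5 peaks that covered 1081 bp and scored 1.88 on average. ORC2437 (2289 bp, at 390614 to 392902) and ORC2439 (1994 bp, at 469981 to 471974), both on 2RHet, scored 1.47 and 2.19, and 1.55 and 1.95.

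On U the 5 highest regions were split in direction. ORC5381 at 8148351 to 8148525 (28.4 and 4.75) and ORC5385 at 9289212 to 9289380 (18.9 and 5.62) had their high score in replicate 1, as did ORC5354 at 508334 to 508478 (9.46 and 5.70) and ORC5369 at 5630302 to 5631037 (8.43 and 3.29). ORC5358 at 1182458 to 1183607 was the exception, with 2.66 in replicate 1 and 9.97 in replicate 2. Its replicate 1 peak covered 1150 bp and its replicate 2 peak 81 bp. The widest regions were ORC5355 at 1089115 to 1092425 (3311 bp, scores 3.22 and 1.63), ORC5362 at 3533754 to 3536420 (2667 bp, 2.88 and 1.58) and ORC5373 at 6558338 to 6560701 (2364 bp, 2.53 and 2.20). Each of these scored higher in replicate 1.

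Some replicate peaks of 2RHet and U scored above every peak of the large arms, whose highest score was 17.2. There were 7 in replicate 1 and 10 in replicate 2, none on chromosome 4, and 2 of the 17, the replicate 1 peaks of ORC5381 and ORC5385, overlapped a peak of the other library. On 2RHet these were Rep1_ORC3005 at 1727781 to 1727800 (score 61.8, 20 bp), Rep2_ORC3845 at 2144827 to 2144842 (172, 16 bp), Rep2_ORC3839 at 1741665 to 1741682 (26.2, 18 bp) and Rep2_ORC3803 at 243528 to 243534 (24.5, 7 bp). Each was narrower than a read, and the nearest peak of the other library lay 5803, 417027, 13865 and 4730 bp away. On U the highest peak of replicate 2, Rep2_ORC8562 (2310, 29 bp), was also narrower than a read. It lay 310162 bp from the nearest peak of replicate 1. That of replicate 1, Rep1_ORC6749 (619, 37 bp), lay 102952 bp from the nearest of replicate 2. Others on U were Rep1_ORC6750 (488, 79 bp), Rep2_ORC8559 (107, 12 bp), Rep1_ORC6698 (35.5, 88 bp), Rep2_ORC8545 (21.4, 46 bp) and Rep1_ORC6727 (21.3, 87 bp). No sequence or annotation of this release was used here, so genes and repeats at the peaks are not named.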

How the data were processed

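Peaks had been called with PeakSeq on FlyBase release 5.1, per the file headers and a column naming the source. The aligner, the caller's settings and its control are unstated in the sources used here. Per the labels' protocols, fragments of 150 to 200 bp were selected, and the series' design text gives reads of 36 nt. The authors deposited a start, an end and a score without a unit for each peak. Combined limits equalled the union of the replicate peaks for all 133 regions here.

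The length of a sequence was taken as the last base that a peak of any list reached. Overlap was at least 1 bp, a gap the bases between neighbours, and a region's replicate score the mean over its peaks. Intervals (95%) were exact Poisson, exact binomial or exact conditional ones, computed with scipy 1.17.1 and pandas 2.3.3 in Python 3.11.15. The functions were tested on simulated data.

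Named regions were, per class, the 5 of highest mean replicate score, the 3 widest and the 3 longest gaps, and all peaks above the highest score of the large arms. The members, the rule and the comparisons were chosen with earlier results of these data known, and the stretches, windows, score limit and width classes after the values were seen.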

Additional observations from a re-analysis of the deposited data

How the results depend on the processing

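The order of density between chromosome 4, the placed scaffolds and U held under every alternative tried, and each list alone gave it. Density of U relative to the placed scaffolds was 0.789 among peaks at or above the median score, where the interval no longer excluded 1 in both libraries. Chromosome 4 relative to the large arms was 1.06 there, the reverse of 0.779 as reported, 0.805 with equal list lengths and 0.818 from first to last peak; the cause was not tested.

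Shares that overlapped, as means of the libraries (67.6% on chromosome 4, 29.8% on the placed scaffolds, 31.2% on U), were 48.1%, 15.8% and 19.3% with reciprocal overlap of 50%. Within 1 kb they were 51.3% on the placed scaffolds and 45.4% on U, and above the median score 16.5% and 19.2%. Mean median widths of 229 bp (chromosome 4) and 132 bp (placed scaffolds) became 254 and 197 bp for peaks of at least 36 bp, and 261 and 80 bp above the median score. The combined list gave 400, 805 and 492 bp (U). Median gaps rose to 13425 and 12790 bp on chromosome 4 and the placed scaffolds above the median score, so these classes were close there. In the combined list they rose to 14068, 27639 and 120020 bp (U). No paired analysis was possible because the lists form a single group. Depth is unknown, so no limit of detection can be given.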

Other observations

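Exactly equal scores were frequent on U in replicate 2. There 59 of 153 peaks (38.6%, exact binomial interval 30.8 to 46.8) had a score that another peak of the list also had, against 19.4% (18.6 to 20.2) on the large arms and 8 of 90 (8.89%, 3.92 to 16.8) on chromosome 4. A score of 19.0 was given to 4 peaks of U, Rep2_ORC8500, Rep2_ORC8566, Rep2_ORC8616 and Rep2_ORC8635, of 94, 19, 31 and 35 bp. In replicate 1, 19 of 91 U peaks (20.9%, 13.1 to 30.7) had such a score, against 18.7% on the large arms, and 6 of them scored 5.32.

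Among combined regions, wider ones had lower scores in all 3 classes. Across combined regions, Spearman's rho between width and mean score was -0.49 on chromosome 4 (49 regions), -0.40 on the placed scaffolds (50) and -0.37 on U (34), against -0.08 on the large arms. These are descriptions across regions of the same libraries.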
